A study of Mus musculus with 2 samples.

Results

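Arg1 Mmp12 macrophages are C1q-rich tumour macrophages that carry transcripts of arginase 1 or macrophage elastase. They numbered 65 cells in the ibudilast library and 274 in the PBS library, 339 of 15234 kept cells in all. The cells were chosen on measured values of the same libraries. Of barcodes with at least 300 genes, at least 500 UMIs (unique molecules counted) and under 10% of UMIs from mitochondrial genes, those were taken with C1qa and C1qb at 0.8% of UMIs or more and at least 3 UMIs of Arg1 and Mmp12 together. Cells with 2 or more Cd3 UMIs, 3 or more UMIs of the microglial genes P2ry12, Sall1 and Fcrls, or 3 or more UMIs of the cycling genes Mki67 and Top2a were left out. So were cells with at least 3 Gpnmb UMIs and Cd74 under 1.2% of UMIs. The levels of these genes are therefore given as a description and support nothing.

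The libraries hold CD45-positive leukocytes from intracranial tumours of GL261, a mouse glioma cell line, in C57BL/6 mice. Mice of the ibudilast library received 20 mg/kg by gavage 5 times per week over 2 weeks. Ibudilast blocks phosphodiesterases, which break down cyclic AMP, and also the cytokine MIF. Mice of the PBS library, which the labels call untreated, had PBS according to the protocol text. Each group is 1 library, and the sources used here do not give the number of mice behind it.

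Arginase 1 splits arginine into ornithine and urea, and in macrophages it draws on the substrate that nitric oxide synthase also uses. Mmp12 is a secreted metalloproteinase of macrophages that cuts elastin, and Mmp13 is a collagenase. Ccl8 is a chemokine and Mrc1 is the mannose receptor, a surface marker of alternatively activated and tissue-resident macrophages. Under low oxygen, cells stabilise the transcription factor HIF-1, which raises glucose uptake, glycolysis and vascular growth factors; macrophages in poorly perfused tumour regions are known to carry this programme.

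The 8483 barcodes of the ibudilast library and 8968 of the PBS library held 82196922 and 119113794 UMIs. After filtering, 7079 ibudilast and 8155 PBS cells remained, with median UMI counts of 8267 and 12234. Arg1 Mmp12 macrophages had medians of 12610 UMIs in the ibudilast library and 17928 in the PBS library (ranges 2253 to 44788 and 2116 to 50869). Their median mitochondrial percentages were 2.8 and 2.87. The 12 general macrophage markers summed to 39820 and 40825 counts per 1000000 UMIs (CPM) in them, with none at 0. The libraries had 19 barcode sequences in common, of which 1 occurred among the Arg1 Mmp12 macrophages. With 1 library per group no difference has a replicate check, and no test was made. All intervals are 95% intervals of counting error and leave out the variation among cells and among mice. A gene is called higher or lower when its ratio is 1.5-fold or more, or the inverse.

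Most of these cells were Mmp12 cells, and Arg1 was found in a minority. Mmp12 without Arg1 was seen in 54 of 65 ibudilast cells (83.1%) and 196 of 274 PBS cells (71.5%). Both genes were seen in 7 (10.8%) and 60 (21.9%) cells, and Arg1 without Mmp12 in 4 (6.15%) and 18 (6.57%). Mmp12 counts had a median of 7 UMIs in each library, with quartiles of 4 and 15 in ibudilast cells and 3 and 19 in PBS cells, and the highest cells held 102 and 109 UMIs. Arg1 had a median of 0 in each library, and its highest cells held 43 and 105 UMIs. The name with Arg1 first therefore describes the smaller fraction of the cells.

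**Figure D1:**
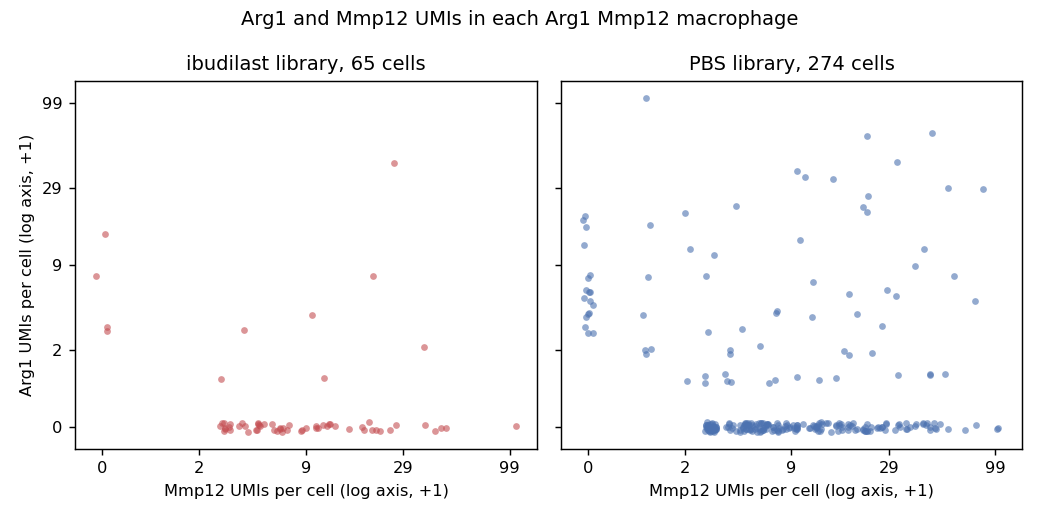
Each point is 1 Arg1 Mmp12 macrophage, with its Mmp12 UMIs on the horizontal and its Arg1 UMIs on the vertical log axis, in the ibudilast (65 cells) and PBS (274 cells) libraries. Most points lie along the bottom, where Mmp12 is present and Arg1 is 0.

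Arg1 spans chr10:24915221-24927484 on the minus strand of mm10 (GENCODE M21). Mmp12 (chr9:7344381-7369499) and Mmp13 (chr9:7272514-7283331) both lie on the plus strand of chromosome 9. Ccl8 lies at chr11:82115185-82116799 and Mrc1 at chr2:14229392-14332057, both on the plus strand. All 5 are annotated as protein coding.

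Promoter windows of 5 genes are shown because Mmp12 helped define the cells, Mmp13 was among the genes most above other macrophages, and Bnip3, Pgk1 and Slc2a1 belong to the hypoxia and glycolysis genes described further on. Sequences are RefSeq windows on GRCm38.p6, from 250 bases before to 50 bases after the annotated start, written 5′ to 3′ along the gene's strand. In Mmp12 (chr9:7344147-7344446, plus strand) and Mmp13 (chr9:7272264-7272563, plus strand) the capitals mark TGANTCA, the binding motif of AP-1, the dimer of Fos and Jun proteins. In Bnip3 (chr7:138909457-138909756, minus strand), Pgk1 (chrX:106186850-106187149, plus strand) and Slc2a1 (chr4:119108495-119108794, plus strand) they mark ACGTG or GCGTG on either strand, the core of the HIF-1 response element, with overlapping matches run together.
Mmp12: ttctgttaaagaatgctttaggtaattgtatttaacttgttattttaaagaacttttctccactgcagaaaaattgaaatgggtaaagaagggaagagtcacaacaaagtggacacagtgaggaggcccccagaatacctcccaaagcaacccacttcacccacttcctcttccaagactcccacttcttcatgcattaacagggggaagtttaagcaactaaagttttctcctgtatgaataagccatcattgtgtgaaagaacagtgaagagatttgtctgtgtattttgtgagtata
Mmp13: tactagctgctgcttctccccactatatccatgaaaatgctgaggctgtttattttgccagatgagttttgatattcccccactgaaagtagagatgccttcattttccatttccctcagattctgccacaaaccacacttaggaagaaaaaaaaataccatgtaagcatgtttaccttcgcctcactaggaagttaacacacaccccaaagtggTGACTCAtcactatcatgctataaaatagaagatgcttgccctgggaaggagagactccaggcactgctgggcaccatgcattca
Bnip3: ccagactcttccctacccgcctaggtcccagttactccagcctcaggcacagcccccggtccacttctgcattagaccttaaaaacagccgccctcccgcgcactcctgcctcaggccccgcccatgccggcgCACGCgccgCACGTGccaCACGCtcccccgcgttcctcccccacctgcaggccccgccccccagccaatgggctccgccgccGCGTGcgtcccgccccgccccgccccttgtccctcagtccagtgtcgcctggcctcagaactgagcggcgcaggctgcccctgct
Pgk1: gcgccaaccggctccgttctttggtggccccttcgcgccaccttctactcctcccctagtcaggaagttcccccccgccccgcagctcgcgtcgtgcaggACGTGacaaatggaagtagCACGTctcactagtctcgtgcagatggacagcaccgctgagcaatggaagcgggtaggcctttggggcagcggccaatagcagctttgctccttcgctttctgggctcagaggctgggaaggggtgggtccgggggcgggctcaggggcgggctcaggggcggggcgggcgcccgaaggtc
Slc2a1: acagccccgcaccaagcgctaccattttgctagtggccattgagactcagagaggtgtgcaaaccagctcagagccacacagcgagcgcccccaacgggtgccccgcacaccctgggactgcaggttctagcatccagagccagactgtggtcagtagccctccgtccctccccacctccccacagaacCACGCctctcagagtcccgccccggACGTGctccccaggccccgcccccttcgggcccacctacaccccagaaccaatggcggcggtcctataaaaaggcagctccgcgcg
Mmp13 has 1 AP-1 match, at position -35 from the start, and the Mmp12 window has none. Mmp12 has 2 listed starts, and for each gene only the window of the first listed start was scanned. Bnip3 has 5 matches of the hypoxia core, and Pgk1 and Slc2a1 have 2 each. Over all 27025 mouse promoter windows of this length, the hypoxia core occurs in 43.8% and the AP-1 motif in 7.93%.

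Of the 5 marker genes, Mmp13, Ccl8 and Mrc1 were not used by the selection. Mmp13 had 268 CPM (over the summed UMIs of a class) in ibudilast Arg1 Mmp12 macrophages and 27.2 CPM in the other macrophages of that library. In the PBS library it had 315 CPM and 73.9 CPM. "Other macrophages" are the 1205 ibudilast and 2570 PBS cells that passed the same C1q, Cd3, microglia and cycling limits with fewer than 3 Arg1 and Mmp12 UMIs, outside the Gpnmb-high Cd74-low class. Thinned to 3000 UMIs per cell, Mmp13 was seen in 30.6% of ibudilast and 43.2% of PBS Arg1 Mmp12 macrophages, against 4.78% and 12.7% of other macrophages and 1.14% and 2.3% of T cells, which should lack it (median depths before thinning 8125 and 8712 UMIs). Unthinned, the Mmp13 shares in Arg1 Mmp12 macrophages were 50.8% and 71.2%, and thinning left out 3 ibudilast and 1 PBS cell of them. The order over classes is the same in both libraries.

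Ccl8 was seen in 29.2% of ibudilast and 26.3% of PBS Arg1 Mmp12 macrophages, and after thinning in 14.5% and 11.4% of them, against 9.64% and 8.52% of other macrophages. In each library 1 cell held a large part: 50 of 194 Ccl8 UMIs in the ibudilast library and 206 of 854 in the PBS library. Mrc1 was seen in 12.3% and 33.9% of Arg1 Mmp12 macrophages unthinned. After thinning it was in 1.61% and 9.89% of them, against 1.93% and 5.25% of other macrophages, so in ibudilast cells it did not separate the classes at this depth.

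As levels, Arg1 had 99.3 CPM in ibudilast and 170 CPM in PBS Arg1 Mmp12 macrophages. Gpnmb-high Cd74-low macrophages (78 and 91 cells), set apart by the selection, had 15.4 and 140 CPM of Arg1, monocytes 12 and 54.9, T cells 3.64 and 3.1, and other macrophages 1.45 and 1.93. Mmp12 had 893 and 774 CPM in Arg1 Mmp12 macrophages, 110.1 and 418 in the Gpnmb-high class, 12 and 23.7 in monocytes, 8.89 and 8.27 in T cells, and 6.09 and 9.91 in other macrophages. Other macrophages were low by the limit of 3 UMIs. Thinned, Arg1 was in 0.551% of ibudilast and 0.646% of PBS other macrophages and in 0.651% and 0.287% of T cells, so its share there was near that of a class that should lack it.

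As a check of the label, many cells with these transcripts lay outside the selection. At least 3 Arg1 and Mmp12 UMIs were found in 267 of 7079 ibudilast cells (3.77%, interval 3.34 to 4.24) and 726 of 8155 PBS cells (8.9%, 8.29 to 9.54). Arg1 Mmp12 macrophages made up 24.3% of the 267 and 37.7% of the 726. Cells with C1q between 0.1% and 0.8% of UMIs made up 32.2% and 20.7%, and held 41.1% and 16.9% of all UMIs of the pair. Cells with 2 or more Cd3 UMIs made up 19.5% and 14.7%, with median depths of 30116 and 30625 UMIs, and microglial and cycling limits removed 5.99% and 10.1%, and 5.24% and 6.61%. Of all Arg1 UMIs, 10.3% in the ibudilast library and 28.2% in the PBS library lay in Arg1 Mmp12 macrophages. For Mmp12 the percentages were 19.7 and 34.4.

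The comparison of the libraries asks how the share of these cells differed with ibudilast. Arg1 Mmp12 macrophages were 0.918% of kept ibudilast cells (0.709 to 1.17) and 3.36% of kept PBS cells (2.98 to 3.77), a ratio of 0.273 (0.205 to 0.359). Among C1q-high macrophages, the cells left by the C1q, Cd3, microglia and cycling limits, they were 65 of 1348 (4.82%, 3.74 to 6.1) and 274 of 2935 (9.34%, 8.31 to 10.4), a ratio of 0.517 (0.388 to 0.679). All kept cells with at least 3 Arg1 and Mmp12 UMIs had a ratio of 0.424 (0.367 to 0.488). Gpnmb-high Cd74-low macrophages did not have a lower share: they were 1.1% and 1.12% of kept cells, a ratio of 0.987 (0.72 to 1.35). Of C1q-high macrophages they were 5.79% and 3.1%, a higher share in the ibudilast library, with a ratio of 1.87 (1.36 to 2.55). Other macrophages had a ratio of 0.54 (0.504 to 0.579) of kept cells and 1.02 (0.953 to 1.09) of C1q-high macrophages. The lower share of Arg1 Mmp12 macrophages in the ibudilast library is thus present on both bases, without a replicate check.

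Depth differed between the libraries and the limits are fixed UMI numbers, so the shares were also taken after thinning every cell to 3000 UMIs. Arg1 Mmp12 macrophages were then 39 of 6155 ibudilast cells (0.634%) and 158 of 7601 PBS cells (2.08%), a ratio of 0.305 (0.209 to 0.435), with 924 and 554 shallower cells left out. Of C1q-high macrophages they were 2.45% and 4.39%, a ratio of 0.559 (0.383 to 0.797). Of all alternatives tried, only requiring at least 1 UMI of each gene moved the ratios beyond these intervals, to 0.124 of kept cells and 0.234 of C1q-high macrophages. The sort and the cells lost to the mitochondrial limit (1208 ibudilast and 718 PBS barcodes) also bear on these shares, and their part was not tested.

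Compared with other macrophages, Arg1 Mmp12 macrophages had higher levels of glycolysis and hypoxia genes in both libraries. Over all 7833 genes tested, 125 (1.6%) were 1.5-fold or more higher in both libraries and 65 (0.83%) were lower in both. With the limit of 100 UMIs put on the class with the higher level, 49 were higher. Of 23 glycolysis and hypoxia genes tested, 20 were higher in both and none lower, with median log2 ratios of 0.90 in the ibudilast and 0.98 in the PBS library, beside 0.02 and -0.03 over all genes. The classes were split by the selection, so these counts describe them and support nothing further. Of the 20 genes, 19 had a promoter window. Of these, 14 (73.7%) held the hypoxia core, against 43.8% of all windows, and 1 (5.26%) held the AP-1 motif. The list was picked for hypoxia and glycolysis, and the windows were not matched in base composition. These shares are therefore a description, and no cause was tested. The Vegfa window, at the first of its 2 listed starts, held no match of the hypoxia core, and sequence outside the windows was not scanned. Hk1, Pdk1 and Hif1a itself, the oxygen-sensitive subunit of HIF-1, were tested and were not higher in both: Hif1a had ratios of 1.65 and 1.1.

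The members of that list run through the whole pathway. Slc2a1, the glucose transporter GLUT1, had 78.6 CPM in Arg1 Mmp12 macrophages and 39.4 CPM in other macrophages of the ibudilast library, and 123 and 41.9 CPM in the PBS library. The glycolytic enzyme Pgk1 had 488 and 205 CPM, and 572 and 239 CPM, ratios of 2.38 (2.15 to 2.63) and 2.39 (2.29 to 2.49). Ldha, which makes lactate, had ratios of 1.67 and 1.77. Vegfa, the vascular growth factor, had 100.4 and 17.8 CPM in the ibudilast library and 80.3 and 18 CPM in the PBS library, ratios of 5.64 (4.38 to 7.2) and 4.47 (3.94 to 5.07). Bnip3, a mitophagy protein and HIF-1 target, had ratios of 2.81 and 3.87. Mif, the cytokine that ibudilast inhibits, had 1016 and 530.3 CPM, and 1166 and 576 CPM, ratios of 1.92 and 2.02.

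Taken cell by cell, the 25 glycolysis and hypoxia genes summed to a median of 7892 CPM in ibudilast and 11200 CPM in PBS Arg1 Mmp12 macrophages. Other macrophages had medians of 4480 and 4857 CPM, Gpnmb-high Cd74-low macrophages 5324 and 5211, and monocytes 4491 and 4752. The spread among the cells was wide: quartiles ran from 5243 to 15402 CPM in ibudilast and from 6365 to 17288 CPM in PBS Arg1 Mmp12 macrophages. Lower quartiles of the cells lay above the medians of other macrophages in both libraries, and the ranges overlapped.

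**Figure D2:**
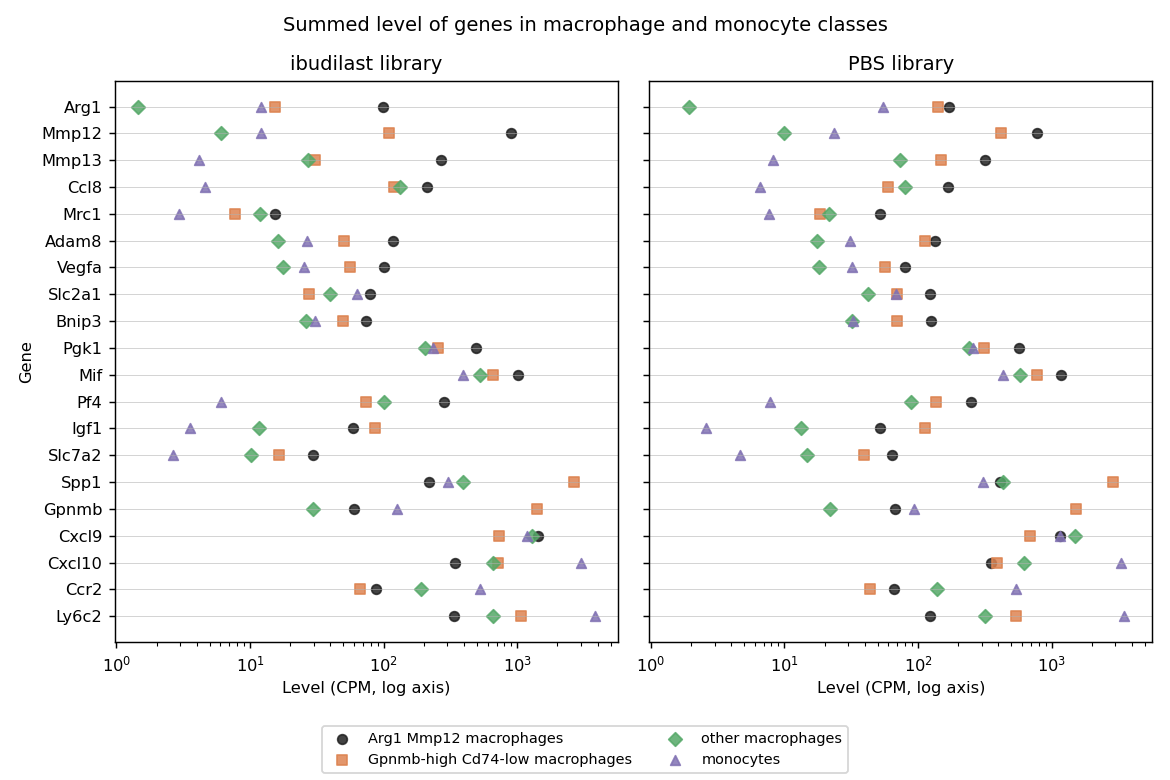
Summed levels (CPM, log axis) of 20 genes in 4 cell classes of the ibudilast and PBS libraries. Arg1 Mmp12 macrophages are the highest class for the hypoxia genes Vegfa, Slc2a1, Bnip3 and Pgk1, the Gpnmb-high class for Spp1, and monocytes for Ly6c2.

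Outside that pathway, the highest gene by the lower of its ratios in both libraries was Adam8, a membrane metalloproteinase of leukocytes. It had 118 CPM in Arg1 Mmp12 macrophages and 16.2 CPM in other macrophages of the ibudilast library, and 135 and 17.4 CPM in the PBS library, ratios of 7.27 (5.71 to 9.21) and 7.77 (6.96 to 8.66). Mmp13 had ratios of 9.88 and 4.26. Plaur, the urokinase receptor, had ratios of 1.58 and 1.83, and with Mmp12 itself these were 4 of 11 tested metalloproteinase and inhibitor genes higher in both libraries. Among the 14 genes made up of Arg1, Mmp12 and the 12 highest of the ranking, 11 had a promoter window, and 3 of them (27.3%) held the AP-1 motif, against 7.93% of all windows. The hypoxia core was in 45.5% of those 11, close to its share of all windows. This list was drawn from the selection and the ranking, and 11 windows are few. Its motif shares are therefore a description and support nothing further.

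Among arginine genes other than Arg1, Slc7a2, a transporter that brings arginine into macrophages, had ratios of 2.91 (1.85 to 4.43) in the ibudilast and 4.31 (3.74 to 4.95) in the PBS library. It was the 1 gene higher in both out of 12 tested arginine and polyamine genes, with Arg1 itself below the limit of 100 UMIs in the ibudilast library. Nos2, the inducible nitric oxide synthase, was also below that limit and had 19.6 CPM in Arg1 Mmp12 and 2.97 CPM in other macrophages of the ibudilast library, and 23.6 and 2.86 CPM in the PBS library. Odc1 and Ass1 had ratios between 0.895 and 1.33.

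Among secreted factors, Igf1, a growth factor, had ratios of 5.03 (3.62 to 6.9) and 3.92 (3.36 to 4.56). Pf4, a chemokine of platelets and resident macrophages, had ratios of 2.81 and 2.82. Of 14 chemokine genes tested, 5 were higher in both libraries (Pf4, Ccl8, Ccl6, Ccl9 and Cxcl2) and 1 was lower, the interferon-induced Cxcl10, with ratios of 0.523 and 0.573. The Ccl8 ratio in the ibudilast library was 1.6, close to the limit. In that library 1 cell held 50 of 194 Ccl8 UMIs, and 1 cell held 87 of 261 Pf4 UMIs. Whether these calls hold without such cells was not tested. Mt2, a metallothionein that binds zinc and copper, had ratios of 8.09 and 3.05, and 1 cell held 31 of its 101 ibudilast UMIs. Clec4d, a C-type lectin, had ratios of 3.94 and 4.14, and Il7r, the interleukin-7 receptor, 3.04 and 4.31.

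Of 15 genes listed as checkpoint and suppressive ligand genes, 5 were higher in both libraries: Vegfa, Lgals3, the receptors Trem1 and Trem2, and Pdcd1lg2, which encodes PD-L2. Pdcd1lg2 had ratios of 1.66 (0.881 to 2.89) and 3.72 (3.05 to 4.52). Its ibudilast value rests on 14 UMIs, and the interval holds 1. Trem1 had 2.03 (1.1 to 3.5, 15 UMIs) and 1.84 (1.41 to 2.36). Cd274, which encodes PD-L1, had ratios of 1.49 and 1.5. Of 12 iron and haem genes 3 were higher, among them the haem oxygenase Hmox1 (1.81 and 1.57). Lipid genes were higher in 5 of 17, led by the cholesterol exporter Abca1 (2.69 and 2.35) and the lipase Lpl (2.45 and 2.06). As summed levels, these lists were not particular to Arg1 Mmp12 macrophages. Checkpoint genes summed to 5765 and 5298 CPM in them and 8236 and 8608 CPM in Gpnmb-high Cd74-low macrophages. Iron sums were 23209 and 26213 against 31213 and 30764 CPM, and lipid sums 19543 and 20891 against 45570 and 40160 CPM. Other macrophages had 20154 and 20564 CPM of lipid genes, and lower checkpoint and iron sums. Single abundant genes carried most of each sum. In Arg1 Mmp12 macrophages Lgals3 had 3826 and 3175 CPM, Fth1 16160 and 18820, and Apoe 15720 and 16717. The sums therefore say little about the less abundant genes of these lists. MHC class II levels were alike: none of 10 genes was called in either direction, with median log2 ratios of -0.02 and -0.11. Cd74 is 1 of these genes, and the selection left Gpnmb-high cells with low Cd74 out of both classes. The part of the selection in this likeness was not tested. Of 18 type I interferon genes none was higher and 1 lower in both, with medians of -0.30 and -0.50. Ccr2, the receptor of recruited monocytes, had 88.4 and 189.6 CPM in the ibudilast library and 65.7 and 138 CPM in the PBS library, ratios of 0.466 and 0.477, and the monocyte surface gene Ly6c2 had 0.508 and 0.388.

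C1q-high macrophages with 2 Arg1 and Mmp12 UMIs (20 ibudilast and 66 PBS cells) had 9204 and 8844 CPM of the summed glycolysis and hypoxia genes. Those with 3 UMIs (11 and 45 cells) had 7270 and 8770 CPM. Cells with 0 UMIs (1126 and 2201 cells) had 5443 and 6065 CPM, and cells with 16 or more (16 and 94 cells) had 11189 and 14379 CPM. In the PBS library the sum was 6572 CPM at 1 UMI, 10339 CPM at 4 to 6 and 11431 CPM at 7 to 15. The limit therefore cut through a gradation, and the ibudilast groups at 3, at 4 to 6 and at 16 or more rest on under 20 cells. Adam8 had 206 CPM at 16 or more UMIs and 14.2 CPM at 0 in the PBS library. Depth also differed there, with median UMI counts of 13369 at 0, 16078 at 1, 17168 at 2, 15494 at 3 and 19458 at 16 or more, and its part was not tested.

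**Figure D3:**
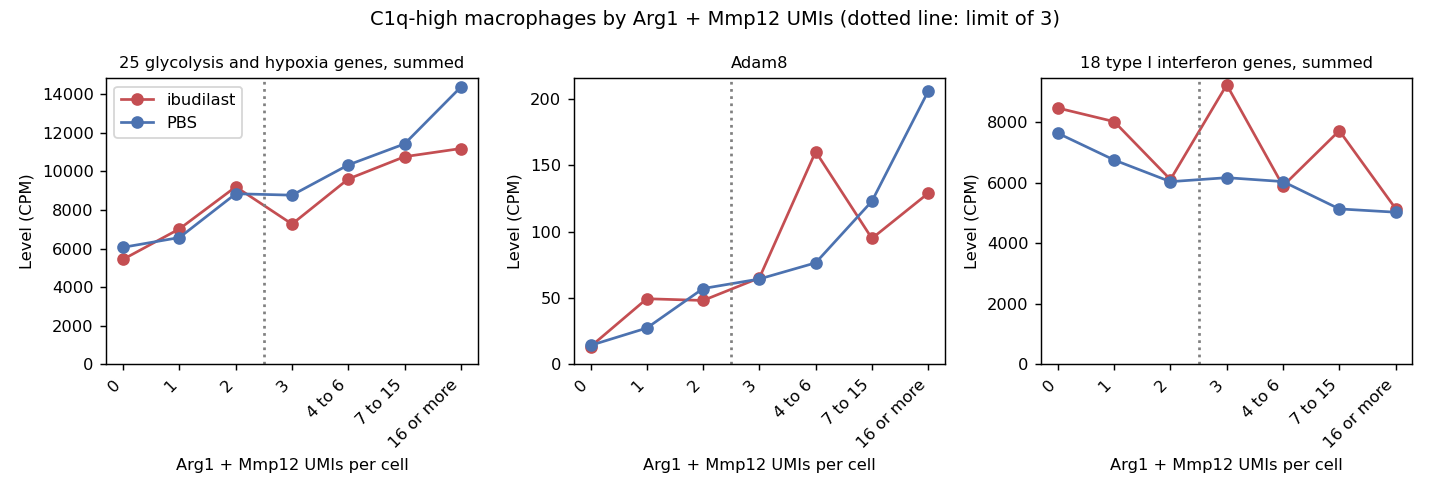
Levels (CPM) in C1q-high macrophages grouped by their Arg1 and Mmp12 UMIs, with the limit of 3 as a dotted line, for the ibudilast and PBS libraries. In PBS cells the glycolysis and hypoxia sum runs between 6065 CPM at 0 UMIs and 14379 CPM at 16 or more, while the interferon sum is highest at 0.

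Cells with both Arg1 and Mmp12 had the highest glycolysis and hypoxia sums, 17953 CPM in 7 ibudilast and 15201 CPM in 60 PBS cells. Cells with Mmp12 alone had 9429 and 10788 CPM, and cells with Arg1 alone 10670 and 13991 CPM in 4 and 18 cells.

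Within the Arg1 Mmp12 macrophages, the glycolysis and hypoxia genes were highest in cells without Cxcl9, a chemokine induced by interferon gamma that attracts T cells. The split was chosen after values were seen. Of the cells, 18 of 65 (27.7%) in the ibudilast library and 47 of 274 (17.2%) in the PBS library had 0 Cxcl9 UMIs, and 35 (53.8%) and 171 (62.4%) had 3 or more. The summed glycolysis and hypoxia level was 18021 CPM in ibudilast and 18190 CPM in PBS cells with 0 Cxcl9 UMIs. In cells with 3 or more it was 8120 and 9981 CPM. Other macrophages showed no such contrast, with 5858 and 6163 CPM at 0 Cxcl9 UMIs and 5668 and 6229 CPM at 3 or more.

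Other genes followed the same split in both libraries. Adam8 had 319 and 358 CPM in ibudilast and PBS cells with 0 Cxcl9 UMIs, and 61.1 and 83.6 CPM in those with 3 or more. Arg1 had 354 and 462 CPM against 37.0 and 111 CPM, and Pf4 885 and 640.3 CPM against 153 and 155 CPM. Mmp12 had 1687 and 977 CPM against 644 and 728 CPM. Arg1 and Mmp12 were used by the selection, so their levels are only a description. Clec4d had 177 and 143 CPM against 8.03 and 21.8 CPM. The ibudilast values rest on few cells: 1 cell held 43 of the 60 Arg1 UMIs at 0 Cxcl9 UMIs, and 1 cell held 87 of all 261 Pf4 UMIs. The 9 MHC class II genes other than Cd74 went the other way, at 28497 and 29712 CPM against 38854 and 39774 CPM. Cells without Cxcl9 were shallower, with median depths of 7787 and 14225 UMIs against 16046 and 19982, so the cells were also split after thinning to 3000 UMIs. Cells with 0 Cxcl9 UMIs then had 13870 and 14853 CPM of the summed glycolysis and hypoxia genes, and cells with 1 or more had 8350 and 9917 CPM. The cells themselves were still selected at full depth. There, shallower cells need a larger fraction of Arg1 and Mmp12 UMIs to reach the limit, and the part of this was not tested.

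**Figure D4:**
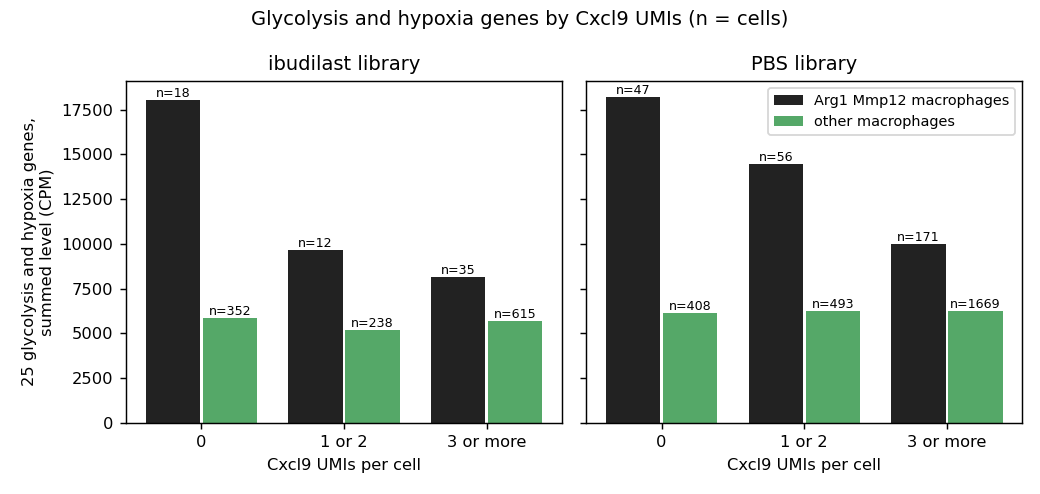
Summed level (CPM) of 25 glycolysis and hypoxia genes by Cxcl9 UMIs per cell, in Arg1 Mmp12 macrophages and other macrophages of the ibudilast and PBS libraries, with the number of cells above each bar. Bars at 0 Cxcl9 UMIs reach 18021 and 18190 CPM in Arg1 Mmp12 macrophages and 5858 and 6163 CPM in other macrophages.

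A further comparison asks how gene levels inside the Arg1 Mmp12 macrophages differed between ibudilast and PBS. In ibudilast cells monocyte and S100 genes were higher, and some alternative activation, chemokine and hypoxia genes were lower. Of 5564 genes tested, 214 (3.85%) were higher and 217 (3.9%) lower by 1.5-fold, with a median log2 ratio of 0.05. In other macrophages, which hold more cells, 353 of 10122 genes tested were higher and 154 lower, with a median of 0.02. Counts called in other macrophages below are to be read beside these. The 65 ibudilast cells held 916271 UMIs in all and the 274 PBS cells 5082597, so single cells weigh heavily in ibudilast sums.

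Of 5 monocyte genes tested, 3 were higher (Ly6c2, Plac8 and S100a4) and none lower, with a median log2 ratio of 1.45. Ly6c2 had 337 CPM in ibudilast and 123 CPM in PBS cells, a ratio of 2.74 (2.38 to 3.14). Plac8 had 516 and 145 CPM, a ratio of 3.57 (3.17 to 4.01). The calcium-binding S100a4 had 226 and 67.9 CPM, a ratio of 3.33, and S100a6 467 and 153 CPM, a ratio of 3.04. S100a4 was seen in 24.6% of ibudilast and 20.8% of PBS cells. Single ibudilast cells held 67 of 207 S100a4 UMIs and 115 of 473 Plac8 UMIs. Without the top cell of each library, ratios were 2.37 for Ly6c2, 3 for Plac8, 2.78 for S100a4 and 2.69 for S100a6. The same genes were also higher in ibudilast other macrophages, where the ratio was 2.09 for Ly6c2, 2.06 for Plac8, 2.14 for S100a4 and 2.07 for S100a6; whether the ratios differ between classes was not tested. The direction turned for Plac8, to 0.837, when all cells were thinned before the selection, and requiring at least 1 UMI of each of Arg1 and Mmp12 gave 0.382 for Plac8, 0.805 for Ly6c2 and 0 for S100a4. The 13 monocyte markers summed to 1290 CPM in ibudilast and 466 CPM in PBS Arg1 Mmp12 macrophages, with no marker at 0 in either, against 13153 and 13755 CPM in monocytes.

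Transcripts of other cell types differed in both directions. The 10 NK and cytotoxic markers summed to 1193 CPM in ibudilast and 658 CPM in PBS cells, the 11 T cell markers to 118 and 47.6 CPM, the 8 oligodendrocyte markers to 157 and 83.6 CPM, and the 5 red cell markers to 45.8 and 2.95 CPM. Lower sums in ibudilast cells were those of the 7 B cell markers (14.2 and 53.3 CPM), the 13 dendritic cell markers (163 and 208 CPM) and the 10 microglia markers (972 and 1179 CPM). No T cell marker was at 0, while 1 NK marker and 1 red cell marker were at 0 in ibudilast cells and 1 oligodendrocyte and 1 red cell marker in PBS cells. Of the B cell markers, 4 were at 0 in ibudilast cells and 0 in PBS cells. Klrd1, an NK receptor gene, had 67.7 and 17.5 CPM, a ratio of 3.86. The chemokine Ccl5, counted among the NK and cytotoxic markers, had 924 and 466 CPM, a ratio of 1.98. It thus made up most of the NK sums, and other macrophages had 892 and 421 CPM of it. Of 5 NK and cytotoxic genes tested, 3 were higher and none lower, and Gzma had a ratio of 0.943 (0.742 to 1.19). Ifitm1, an interferon-induced membrane protein, had 153 and 29.9 CPM, but 1 ibudilast cell held 85 of its 140 UMIs, and the ratio of 5.11 was 3.07 (2.17 to 4.3) without the top cell of each library. Without cells holding a Cd3d, Cd3e, Cd3g, Nkg7 or Gzma UMI, Ifitm1 and Klrd1 had ratios of 0.443 and 0.887. This left 29 of 65 ibudilast and 193 of 274 PBS cells, so such UMIs removed a larger part of the ibudilast cells. The part of such transcripts in the other ratios was not tested.

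Of 18 type I interferon genes, 5 were higher in ibudilast cells and none lower, with a median log2 ratio of 0.27. Isg20, an RNA nuclease, had 80.8 and 32.5 CPM, a ratio of 2.49 (1.86 to 3.29), and the antiviral Rsad2 196 and 92.7 CPM, a ratio of 2.12 (1.78 to 2.52). Ifit1, Ifit3 and Isg15 had ratios of 1.77, 1.78 and 1.68. In other macrophages Rsad2 had 1.03 and Isg20 1.34, and none of the 18 was called. The median was -0.45 when all cells were thinned before the selection and -0.04 when at least 1 UMI of each of Arg1 and Mmp12 was required (7 ibudilast and 65 PBS cells). Gadd45b, a stress response gene, had a ratio of 2.29 and Mt2 of 2.45 (110.2 and 45.1 CPM), against 1.13 and 0.923 in other macrophages.

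Alternative activation genes had a median log2 ratio of -0.70, with 4 of 8 lower and none higher, against a median of -0.11 in other macrophages, where 13 of the genes were tested and 5 were lower and 4 higher. Over the 17 alternatives that gave a value, the median in Arg1 Mmp12 macrophages lay between -1.30 at 6 or more Arg1 and Mmp12 UMIs and -0.09 with the cells thinned to 3000 UMIs. Mrc1 had 15.3 CPM in ibudilast and 52.3 CPM in PBS cells (14 and 266 UMIs), a ratio of 0.292 (0.157 to 0.499), and 0.548 in other macrophages. Mgl2, a galactose-binding lectin, had 114 and 254 CPM, a ratio of 0.448 (0.363 to 0.547), and 0.304 in other macrophages. The chemokine Ccl17 had 13 and 245 UMIs, in 7.69% and 7.3% of the cells. Ccl24 had 0 and 291 UMIs, and 1 PBS cell held 121 of these. Both chemokines thus came from few cells, and with Ccl24 set to a floor of 3 UMIs it is still the lowest of the 8, so the median is the same.

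Of 16 lipid genes 2 were lower and 1, Nr1h3, higher, with a median of 0.07. Lpl had 136 CPM in ibudilast and 310.5 CPM in PBS cells, a ratio of 0.439 (0.363 to 0.527), and 0.369 in other macrophages. The fatty acid receptor Cd36 had 15.3 and 40.3 CPM, a ratio of 0.379. Spp1, which encodes osteopontin, had 219 and 414 CPM, a ratio of 0.529 (0.456 to 0.612), and 1 PBS cell held 439 of its 2106 UMIs. The Spp1 ratio was 1.12 without cells holding a Cd3d, Cd3e, Cd3g, Nkg7 or Gzma UMI (29 ibudilast and 193 PBS cells left). Trf, which encodes transferrin, had a ratio of 0.528. Ccl2 and Ccl7, which attract monocytes through Ccr2, had ratios of 0.522 and 0.612, against 0.721 and 0.619 in other macrophages. Over all 15 chemokine genes Ccl5 alone was higher, and 3 were lower: Ccl2, Ccl7 and Ccl24.

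Of 24 glycolysis and hypoxia genes, 5 were lower in ibudilast cells and none higher, with a median log2 ratio of -0.23, and none was called in other macrophages (median -0.12). Ndrg1, a hypoxia-induced gene, had 9.82 CPM in ibudilast and 37.4 CPM in PBS cells (9 and 190 UMIs), a ratio of 0.263 (0.118 to 0.509), and 1.16 in other macrophages. Hilpda, a lipid droplet protein induced by hypoxia, had 30.6 and 80.7 CPM, a ratio of 0.379 (0.249 to 0.556), and 0.925 in other macrophages. Bnip3, Ero1l and Slc2a1 had ratios of 0.596, 0.619 and 0.638. Vegfa did not share this, with 100.4 CPM in ibudilast and 80.3 CPM in PBS cells (interval of the ratio 0.986 to 1.57). The median was 0.26 when at least 1 UMI of each of Arg1 and Mmp12 was required (7 ibudilast and 65 PBS cells). It was 0.04 without cells holding a UMI of 12 T and NK genes (20 ibudilast and 125 PBS cells left).

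**Figure D5:**
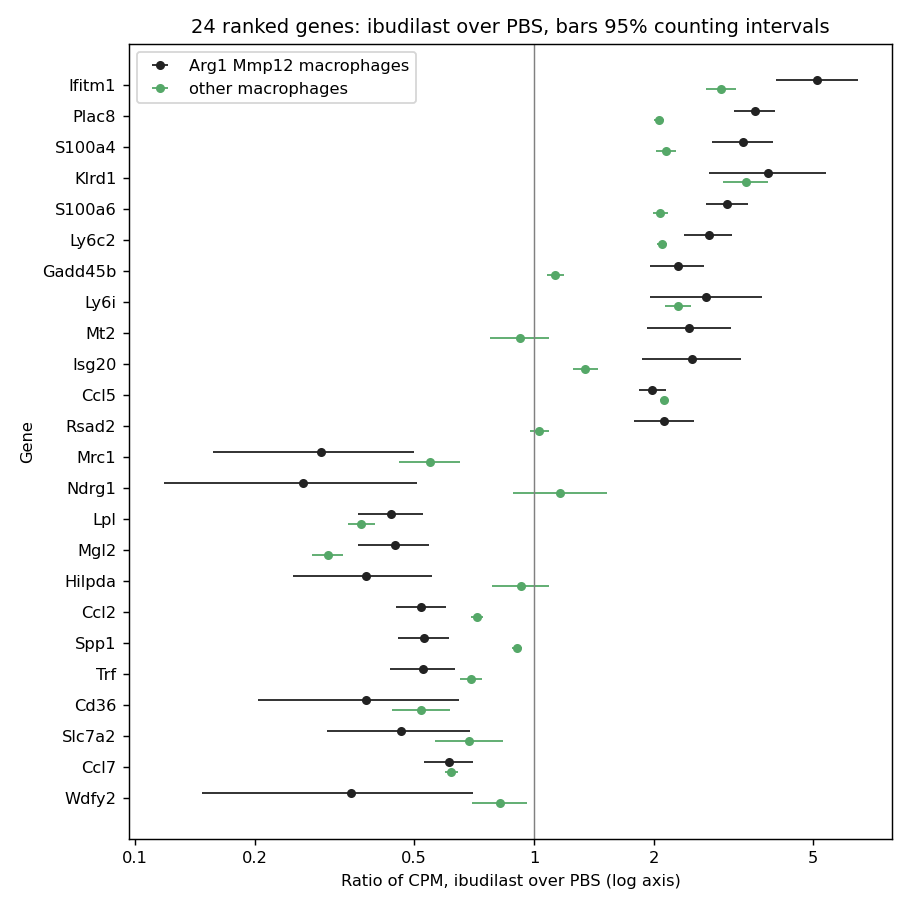
Ratios of CPM, ibudilast over PBS, with 95% counting intervals for the 12 highest and 12 lowest ranked genes, in Arg1 Mmp12 macrophages and other macrophages. Mt2, Ndrg1 and Hilpda lie away from 1 in Arg1 Mmp12 macrophages while their other-macrophage intervals hold 1.

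Of the marker genes, Mrc1 was among the lowest, as given above. Mmp13 had a ratio of 0.853 (0.743 to 0.976) in Arg1 Mmp12 macrophages and 0.368 in other macrophages, and Ccl8 ratios of 1.26 and 1.64. Arg1, which the selection used, had a ratio of 0.584, and 0.359 without the top cells, since 1 ibudilast cell held 43 of 91 UMIs. Of the genes for ibudilast's targets and their partners, 6 of 16 reached 100 UMIs. Mif had a ratio of 0.871 (0.812 to 0.934), and the phosphodiesterase gene Pde4b 21.8 CPM in ibudilast and 18.9 CPM in PBS cells (20 and 96 UMIs), a ratio of 1.16 (0.676 to 1.89). Cxcr4, a chemokine receptor that also binds MIF, was the 1 gene called, at 1.73 (1.41 to 2.12), against 1.66 in other macrophages. No MHC class I gene of 13 was called, and of 10 MHC class II genes 1, H2-Oa, was higher. Their median log2 ratios were 0.16 for class I and -0.07 for class II.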

How the data were processed

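Single-cell RNA counts of CD45-positive cells from 2 libraries (ibudilast and PBS, 1 each) were used. The authors deposited raw counts of UMIs for each gene in each barcode. They were made with Cell Ranger 6.1.1, as the headers of the files record, and are whole numbers. The submitters' processing notes name mm10, and the sources used here give no other settings. The 31253 features were summed to 31205 symbols, 43 symbols having several identifiers.

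Cells were selected by the limits given above. The members, the 31 gene lists (2 genes were unmatched) and all limits were chosen with earlier results of these data known. Doublets were not removed: the 6% of cells with the highest Scrublet scores (scanpy 1.11.5), which hold 1 ibudilast and 19 PBS members, were left out as an alternative. Monocytes were cells with C1q under 0.2% of UMIs and at least 5 Ly6c2 and 5 Lyz2 UMIs, and T cells had at least 3 Cd3 UMIs and C1q under 0.1%.

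Counts were summed per class and library and scaled to CPM. Genes needed 100 UMIs over both libraries' members. When classes were compared, the larger of both classes' UMI sums had to reach 100 in each library. Ratios have exact conditional binomial intervals, shares Clopper-Pearson intervals and sums Poisson intervals (scipy 1.17.1, numpy 2.4.6, python 3.11.15). List medians use 0.5 UMIs added to each sum. The scripts were tested on simulated data.

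Genes were named by rule. For ibudilast against PBS, genes seen in 10% or more of the cells where their level was higher were ordered by whichever interval bound lay closer to 1, and the 12 highest and 12 lowest beyond 1.25-fold were taken. Against other macrophages, the ranking was by the weaker library, and 12 and 10 were taken. Left out were selection genes, unnamed gene models, Xist and Y-linked genes, and mitochondrial, ribosomal protein, haemoglobin and antigen receptor genes. List members could also be named.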

Additional observations from a re-analysis of the deposited data

How the results depend on the processing

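No paired analysis was possible because there is 1 library per group. Apart from requiring both genes, the share ratio ran between 0.245 and 0.357 of kept cells and between 0.421 and 0.674 of C1q-high macrophages over the alternatives. Requiring at least 1 UMI of each of Arg1 and Mmp12 (7 ibudilast and 65 PBS cells) gave 0.124 and 0.234, with 244 genes higher and 440 lower than in other macrophages. The 65 genes lower than in other macrophages became 135 at 6 UMIs, 116 at 0.03% of UMIs, 198 with all cells thinned first and 164 with C1q at 0.1%. Genes higher and lower in ibudilast members numbered 24 and 53 with all cells thinned first, 47 and 49 with members thinned, 938 and 841 at a floor of 20 UMIs, 20 and 24 at a floor of 400, and 341 higher with each cell weighted alike.

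The C1q limit of 0.1% and the alternatives of this paragraph were chosen after seeing the data. Of the 125 genes higher than in other macrophages, 49 were left with the 100 UMIs asked of the class with the higher level, since fewer genes are then tested. With the floor on the sum of both classes, 132 were higher and 67 lower. Without cells with a haemoglobin UMI (38 ibudilast and 262 PBS members left) there were 363 genes higher and 404 lower in ibudilast members. Compared with other macrophages, 53 were then higher and 20 lower. Without cells with a UMI of 12 T and NK genes (20 ibudilast and 125 PBS members left) 76 genes were higher and 40 lower than in other macrophages. Under the remaining alternatives these counts stayed within 1.5 times.

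Directions turned as follows. Requiring both genes, the list medians were 0.09 for arginine, 0.33 for metalloproteinase, -0.04 for interferon and 0.26 for glycolysis and hypoxia genes, and ratios were 0.382 for Plac8, 0.805 for Ly6c2, 0.425 for Gadd45b, 0.328 for Isg20, 1.44 for Slc7a2, and 0 for S100a4 and Ly6i. Without Cd3d, Cd3e, Cd3g, Nkg7 or Gzma, metalloproteinase and chemokine medians were 0.05 and 0.08, and ratios 0.443 for Ifitm1, 0.887 for Klrd1 and 1.12 for Spp1. With all cells thinned first, medians were 0.13 for arginine, -0.45 for interferon and -0.21 for matrix and angiogenic genes, and ratios 0.705 for Ifitm1 and 0.837 for Plac8. Without the 12 T and NK genes, medians were 0.17 for metalloproteinase, 0.16 for pro-inflammatory, 0.05 for chemokine, 0.04 for glycolysis and hypoxia and -0.08 for matrix genes, and Ifitm1 had 0.831. The matrix median was also -0.08 with C1q at 1.2%, -0.04 with members thinned and -0.13 without haemoglobin. The causes were not tested.

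Fewer cells and lower depth in the ibudilast library limit what can be seen: with 916271 UMIs, a gene at 3 UMIs there is not separable from 0, and 1 cell can carry a sum.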
